A study of Mus musculus with 4 samples.

Results

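Cycling alpha cells of the mouse pancreatic islet are described here: cells that made glucagon and carried transcripts of the cell division machinery. The members were chosen by their counts of 8 cycle genes and 5 hormone genes. They came from 4 inDrop libraries, in which droplets capture single islet cells and messenger RNAs are counted from their 3′ ends, 2 libraries labelled WT and 2 labelled Sin3A mutant. The letter A marks the WT and the mutant library with _2426 in the title, and B the pair with _3165. The sources used here do not say what these numbers mean. The labels call the tissue pancreatic islets and the cells primary, and the series describes 2 biological replicates per genotype. Which cells carried the Sin3a mutation, which allele or recombinase was used, how old the mice were and how many were pooled is not said either, so each group is known by its genotype label alone.

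A barcode passed as a cell with 500 or more counts, 250 or more genes and a mitochondrial share of 25% or less, which 6566 of 6948 barcodes did. An alpha cell had at least 2% of its counts in Gcg, the glucagon gene, more in Gcg than in each of insulin, Sst and Ppy, and under 1% in each of these 3 (Ins1 and Ins2 together for insulin). A cycling alpha cell had in addition at least 3 counts summed over 8 genes of dividing cells: Mki67, Top2a, Ube2c, Ccnb1, Ccna2, Cdk1, Pbk and Rrm2. Of the 1097 alpha cells 143 were cycling, 18 in WT A, 16 in mutant A, 47 in WT B and 62 in mutant B. That order of libraries holds for every run of 4 values below. Another 696 alpha cells (71, 85, 326 and 214) had 0 such counts and served as the comparison, and 258 had 1 or 2. Levels are counts per 1000000 (CPM) of the counts summed over the cells of one kind in one library. The sums held 175994, 136107, 346141 and 394959 counts for cycling alpha cells and 506919, 451355, 1542303 and 1007175 for alpha cells with 0 counts.

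Alpha cells release glucagon, the hormone that makes the liver put out glucose, and signal to the beta cells beside them. In rodents their number grows by division mostly around birth and in early life, and amino acids in the blood are a known stimulus of that growth. A dividing cell copies its DNA in S phase, for which E2F transcription factors switch on replication genes, and then builds the mitotic spindle in G2 and M phase under cyclin B and Cdk1. Genes of the later phase are held down in resting cells by a repressor complex, DREAM, which binds the promoter element called CHR.

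The label was checked on genes that mark alpha cells. Irx1, a transcription factor of alpha cells, stood at 540, 441, 413 and 354 CPM in cycling alpha cells and at 1.76, 1.17, 4.99 and 1.47 CPM in cycling beta cells, taken by the mirrored rule on insulin. Irx2, its relative, stood at 364, 213, 303 and 276 CPM against 0.441, 0.586, 1.66 and 3.67 CPM in cycling beta cells. Both were high in every library of the alpha cells and near 0 in every library of the beta cells, and neither was used by the rule. Ins1 had at least 1 count in 131 of the 143 cells (91.6%), at a level of 597, 992, 534 and 220 CPM in the sums, against 75487, 154160, 37508 and 23781 CPM in cycling beta cells. Insulin RNA was therefore found in most cycling alpha cells, at a level far below that of the beta cells, and the part of free RNA from broken cells in it was not tested.

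The 8 cycle genes chose the cells, so their values are a description. Mki67, the proliferation antigen Ki-67, was at 256, 309, 283 and 162 CPM and had a count in 84 of 143 cells. Top2a, which untangles replicated chromosomes, was at 278, 441, 584 and 618 CPM and had a count in 117 cells. Ube2c, which hands ubiquitin to the cyclins at the end of mitosis, was at 392, 779, 809 and 610 CPM. Mki67 was lowest in mutant B, and Top2a and Ube2c were lowest in WT A. The cyclins Ccnb1 (295, 279, 376 and 367 CPM) and Ccna2 (244, 514, 537 and 504 CPM) and their kinase Cdk1 (381, 301, 312 and 324 CPM) were present in all 4 libraries. Pbk, a mitotic kinase, was at 176, 294, 231 and 149 CPM, and Rrm2, a subunit of the enzyme that makes deoxynucleotides, at 341, 287, 156 and 248 CPM. All 8 were at 0 in the comparison cells by the rule.

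Most members rested on several of these genes: 118 of 143 had counts of at least 3 of the 8, 26 had all 8, and 6 had a single one. At the threshold, the 56 alpha cells with 2 counts had a median of 11.8 counts per 10000 over the mitosis and G2 list of other genes described below, and the 21 with 3 counts had 19.3. The 15 cells with 4 counts had 42.6, and the 696 with 0 counts 8.38. Cycling alpha cells were also deeper than those with 0 counts, with a median of 7106 against 4814.5 counts per cell, and the rule counts molecules, so depth enters the choice of cells.

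Gcg itself, which the rule used, made up a median of 14.1% of the counts of a cycling alpha cell and 17.1% of those of an alpha cell with 0 counts. In the sums it stood at 91372, 139070, 158930 and 148570 CPM in cycling cells and at 124170, 165180, 186220 and 154890 CPM in the others. The level was lower in the cycling cells of all 4 libraries, most in WT A and least in mutant B, and the lowest single members held 2.23% and the highest 34.5% Gcg.

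Ductal markers aside, markers of cells outside the endocrine islet were low in most sums but not in all. Ductal markers summed to 597, 580, 436 and 430 CPM in cycling alpha cells. In those with 0 counts they summed to 736, 733, 626 and 372 CPM. Markers of mesenchymal cells summed to 2176 CPM in the cycling alpha cells of WT A (383 counts) and to 86.7 to 258 CPM in those of the other libraries. Erythroid markers summed to 1427 CPM in WT B and to 7.35 to 30.4 CPM elsewhere, and endothelial markers to 454 CPM in WT B and 17.0 to 88.2 CPM elsewhere. In these 3 sums 1 cell each held most counts: 359 of the 383 mesenchymal counts in WT A, 478 of the 494 erythroid counts in WT B and 132 of the 157 endothelial counts in WT B. Likewise 65 of the 68 counts of Sparc, a matrix protein gene, in WT A and 98 of the 108 in WT B were in 1 cell each. Acinar, immune and Schwann cell markers summed to at most 124 CPM in the cycling alpha cells of any library, with Cela1, Cela2a, Pnlip and Lyz2 at 0. In the alpha cells with 0 counts erythroid markers reached 892 CPM in WT B and 529 CPM in mutant B, and acinar markers 452 CPM in mutant B, where 1 cell held 408 of 455 counts. Results are given with and without the 24 alpha cells of either state (5 of them cycling, in WT A, WT B and mutant B) that had over 0.5% of their counts in such markers. Ductal markers were not counted for that limit. Scrublet, a doublet caller, marked 1 cycling alpha cell. Libraries shared 12 to 42 cell barcodes in pairs, and 1 shared barcode, between WT B and mutant B, was a cycling alpha cell in both.

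The share of alpha cells that cycled was compared after thinning each cell to 2000 counts, since libraries differed in depth. It was 9.01% in WT A (10 of 111 cells, exact 95% interval 4.41 to 15.9), 11.8% in mutant A (12 of 102, 6.23 to 19.6), 10.2% in WT B (43 of 421, 7.49 to 13.5) and 16.5% in mutant B (57 of 346, 12.7 to 20.8). The intervals cover counting error only. Mutant B was highest and the intervals of the other 3 libraries overlapped one another and that of mutant B. On full counts the shares by the rule were 15.0, 13.2, 9.51 and 17.1%. Libraries labelled mutant had 14.1% ± 3.33 (SD, n = 2) and those labelled WT 9.61% ± 0.852 (SD, n = 2), a difference of 4.51 percentage points with an exact two-sided permutation p of 0.33, the smallest that 2 against 2 libraries can give. The difference was smaller within A (11.8 against 9.01%) than within B (16.5 against 10.2%), and it was 2.15 points without mutant B.

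In beta cells of the same libraries the shares were 18.3, 17.4, 15.1 and 18.9%, above those of the alpha cells in 4 of 4 libraries. Alpha minus beta was -5.57 ± 2.87 percentage points (SD, n = 4 libraries), with an exact two-sided sign-flip permutation p of 0.13, the smallest that 4 pairs can give. The gap was widest in WT A and narrowest in mutant B.

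**Figure D1:**
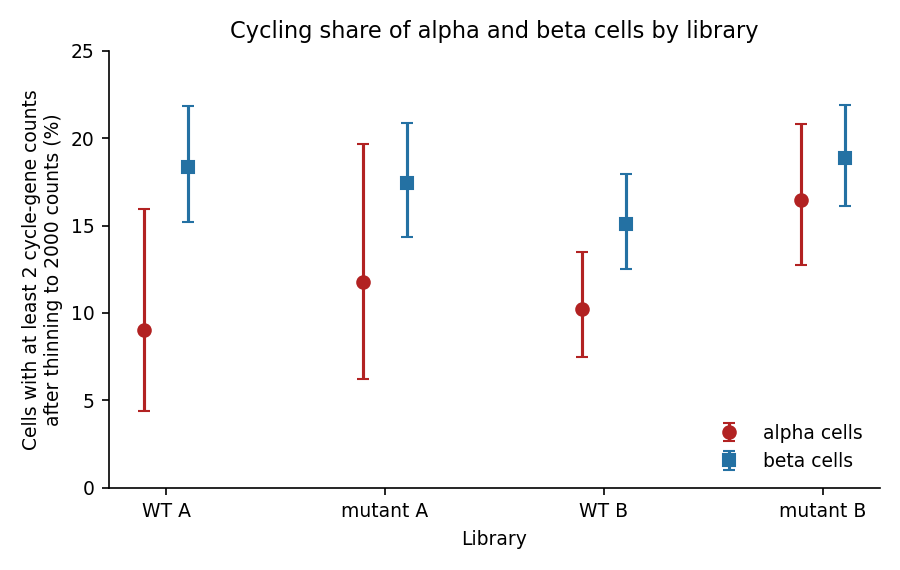
Share of cells with at least 2 counts of the 8 cycle genes after thinning to 2000 counts (percent, vertical axis) in each library (horizontal axis), for alpha cells (circles) and beta cells (squares). Bars are exact 95% intervals for counting error, and the alpha share lies below the beta share in all 4 libraries.

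Genes of the cell cycle that the rule did not count rose with it. Cells taken for one cycle gene are bound to be rich in others, so the counts past the threshold given for lists of cycle genes describe the members and support nothing. Over all 6282 genes that passed edgeR's filter on low counts, 372 (5.92%) were higher in cycling alpha cells at an adjusted p under 0.05 and 108 (1.72%) were lower. These counts were 116 and 50 of 2478 tested when every cell was thinned to 2000 counts, with at least 2 counts of the 8 genes taken as cycling, and 364 and 127 without the cells rich in other markers. The total of 480 fell to 306 without WT B, a library with 47 of the 143 cells, and in a fit without a term for the library to 156 higher and 1 lower. Of the 108 lower genes 1 kept its call in that fit, Hist1h2bc, so the other lower calls named below rest on comparing the states within each library. Called genes named below that lost their call after thinning were Cdk4 (log2 difference 0.47 there), Cdkn1a (0.31), Rbbp4 (0.35), Iapp (0.36), Sdf2l1 (0.54), Slc38a5 (0.01), Slc7a2 (-0.66), Syt13 (-0.54), Ghrl (-0.63) and Hist1h2bc (-1.01), and others were too low to be tested. Of the 372 higher genes, 122 were on the lists of replication, mitosis, cycle entry, structural and DNA repair genes and 250 were not, and none of the 108 lower genes was on these 5 lists.

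All 55 measured genes of the mitosis and G2 list passed, with a median log2 difference of 4.02, against -0.03 for all genes tested. The other 16 genes of that list in the files were too low to be tested. Stmn1, which takes microtubules apart, was at 733, 830, 552 and 618 CPM in cycling cells and at 49.3, 28.8, 29.8 and 49.6 CPM in those with 0 counts, a 16.3-fold higher level. Ccnb2, the other B-type cyclin of mitosis, was at 142, 213, 459 and 382 CPM against 3.95, 2.22, 7.13 and 8.94 CPM. No library overlapped between the states for either gene, and Ccnb2 was lower in both A libraries than in both B libraries.

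Birc5 (survivin) and Cdca8 (borealin) belong to the complex that corrects spindle attachments, and their log2 differences were 5.49 and 5.38. Cenpa, the histone of centromeres, differed by 4.93, Prc1, which bundles the midzone of the spindle, by 5.36, and Cenpf of the kinetochore by 4.56. Cdc20, which starts anaphase, had 40 counts in the cycling cells of all libraries and 0 in the others. It was thus at least 44.4-fold higher against a floor of 3 counts over the group. The smallest difference on the list was that of Bub3, of the spindle checkpoint, at 1.09.

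Replication genes rose less far. Of 37 measured genes of the DNA replication and S phase list, 34 passed, all higher, with a median log2 difference of 2.02. Gins3, Pola2 and Gins4 did not pass, and 14 further genes were too low to be tested. Rrm1, the partner of Rrm2, was at 205, 228, 260.0 and 266 CPM against 29.6, 51.0, 45.4 and 37.7 CPM. Mcm5, a subunit of the replicative helicase, was at 142, 73.5, 150.2 and 266 CPM against 9.86, 8.86, 33.7 and 27.8 CPM. Gmnn (geminin), which keeps DNA from being copied again, was at 102, 80.8, 78.0 and 101 CPM against 5.92, 0, 7.78 and 7.94 CPM. All 3 separated the states in every library. Pcna, the sliding clamp, was 4.06-fold higher but differed between title numbers, with 267 and 294 CPM in the cycling cells of A and 66.5 and 43.0 CPM in those of B.

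**Figure D2:**
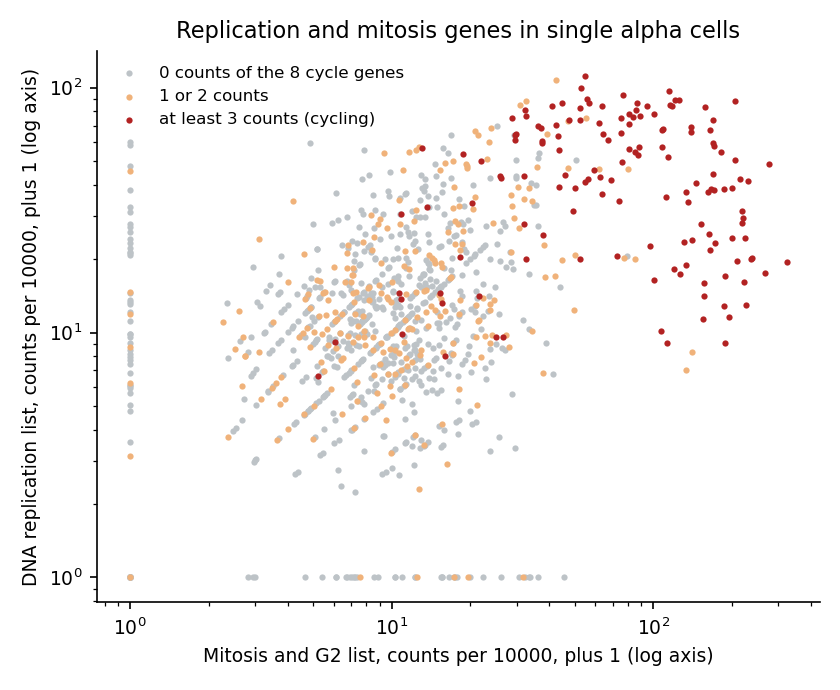
Each point is 1 alpha cell, with counts per 10000 over the mitosis and G2 list (horizontal, log axis) and over the DNA replication list (vertical, log axis), both plus 1 and without the 8 genes of the rule. Cycling cells (red) spread from high replication and low mitosis counts to high mitosis counts, at medians of 41.9 and 83.8, and a few lie among the cells with 0 counts (grey, medians 9.67 and 8.38). Cells with 1 or 2 counts are orange.

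Single members lay along both phases. The median cycling alpha cell had 41.9 counts per 10000 over the replication list and 83.8 over the mitosis list, against 9.67 and 8.38 in alpha cells with 0 counts. More replication than mitosis counts were found in 39 of the 143 (27.3%), 6 of 18, 2 of 16, 17 of 47 and 14 of 62 by library. The same held for 363 of the 696 alpha cells with 0 counts (52.2%), so it does not by itself place a cell in S phase. In the sums, replication genes made up 37.5, 29.9, 27.4 and 33.2% of the counts over both lists, highest in WT A and lowest in WT B. The rule leans to the later phase, since most of its genes are known from G2 and mitosis. The cells with 1 or 2 counts, at medians of 11.3 and 9.93, lay close to those with 0.

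The promoters of these genes were searched for the motifs known for each phase, in 300 bases around the start of the gene (250 before and 50 after, RefSeq, mouse GRCm38.p6). Searched on both strands were CHR (TTTGAA), the CCAAT box (CCAAT), which often stands beside CHR, and E2F sites, spelled TTTCCCGC, TTTCGCGC, TTTGCCGC or TTTGGCGC. Matches could overlap, within a motif or between motifs. CHR was found in 39 of 61 promoters of the mitosis and G2 list (63.9%), in 6 of 38 of the replication list (15.8%) and in 654 of 4886 of all genes tested (13.4%). The order was turned for E2F sites, with 4 of 61 (6.56%), 17 of 38 (44.7%) and 260 of 4886 (5.32%). CCAAT was common everywhere, at 75.4, 57.9 and 43.7%. Of the 20 genes of the alpha cell identity list 12 had a promoter in the table, 2 of them with CHR and none with an E2F site. Over all 27025 promoters of the table the shares were 20.2% for CHR, 41.1% for CCAAT and 2.60% for E2F. Sequence matches describe the letters and not binding.

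Shown are the 160 bases before the start of 3 genes of the mitotic phase and of 1 replication gene, chosen after the search to show each arrangement, on the gene's own strand from 5′ to 3′ with the motifs in capitals. Top2a lies at chr11:99024190-99024349 (minus strand), Cdk1 at chr10:69352913-69353072 (minus), Cdc20 at chr4:118437344-118437503 (minus) and Mcm5 at chr8:75109349-75109508 (plus).
Top2a: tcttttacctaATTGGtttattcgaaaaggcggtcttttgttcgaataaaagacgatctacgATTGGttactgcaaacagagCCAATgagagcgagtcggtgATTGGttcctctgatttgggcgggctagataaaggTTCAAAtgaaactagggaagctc
Cdk1: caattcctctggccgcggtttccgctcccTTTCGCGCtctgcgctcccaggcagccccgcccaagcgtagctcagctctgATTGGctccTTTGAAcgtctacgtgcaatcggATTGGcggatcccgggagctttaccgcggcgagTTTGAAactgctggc
Cdc20: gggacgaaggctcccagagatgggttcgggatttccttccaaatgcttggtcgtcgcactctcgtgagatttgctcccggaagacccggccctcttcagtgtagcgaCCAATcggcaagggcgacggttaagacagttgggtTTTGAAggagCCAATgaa
Mcm5: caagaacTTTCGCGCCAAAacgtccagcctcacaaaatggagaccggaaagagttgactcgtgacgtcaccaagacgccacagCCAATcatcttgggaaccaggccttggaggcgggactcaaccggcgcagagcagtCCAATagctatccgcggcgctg
In Top2a the CHR letters begin 23 bases before the start and 4 CCAAT boxes lie upstream of them. Cdk1 holds 2 CHR matches, at 71 and 15 bases, with 2 CCAAT boxes and an E2F match at 131 bases. Cdc20 has its CHR at 18 bases between 2 CCAAT boxes. Mcm5 has no CHR in this stretch, but 2 overlapping E2F matches at 153 and 149 bases.

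Regulators of cycle entry rose in part. Of 12 measured, 5 passed, all higher: E2f1 (log2 difference 1.73), which drives the E2F program, E2f8 (3.70), which damps it, Cdk4 (0.64), the kinase of D-type cyclins, Cdc25a (1.18), which frees Cdk2 and Cdk1, and Tfdp1 (1.17), the partner of E2F. After thinning 0 of 3 passed, with a median of -0.087, and without the library term 2 of 12. Cdk4 lost its call in 5 of 14 alternatives, Cdc25a in 4 of 13 and Tfdp1 in 6 of 13. The D-type cyclins did not pass. Ccnd2 was at 1358, 1660, 1164 and 1223 CPM in cycling cells and at 884, 1440, 1301 and 1199 CPM in the others, which overlap. Ccnd1 was at 17.0, 80.8, 237 and 32.9 CPM against 90.7, 270.3, 147 and 73.5 CPM, lower in 3 of 4 libraries, with an adjusted p of 0.253 by edgeR.

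Inhibitors of the cell cycle were among the genes that rose. Cdkn2c, which encodes p18 and blocks Cdk4 and Cdk6, was at 90.9, 140, 144 and 96.2 CPM in cycling cells and at 3.95, 0, 2.59 and 4.96 CPM in those with 0 counts. No library overlapped, and the log2 difference was 5.12. Cdkn2d (p19) was higher by 1.65. Cdkn1a (p21), a target of p53, was higher by 0.94 (SE 0.21, edgeR adjusted p 0.00252), but by 0.31 after thinning and by 0.87 without WT B, where it did not pass. Btg2, an antiproliferative gene that p53 induces, fell by 0.61 (SE 0.14, adjusted p 0.00202). Of 18 measured genes of this list 3 rose, 1 fell and 14 did not pass, against 5.92% higher and 1.72% lower of all genes. Their median was 0.08, with 9 above 0 and 9 below.

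Structural genes of dividing cells moved together, 23 of 25 higher, with a median of 1.10. After thinning 10 of 20 passed, with a median of 0.68, and without the library term 8 of 25. Tuba1b was at 1227, 1624, 1005 and 836 CPM against 250.5, 222, 210.1 and 207 CPM, and Tubb5 at 2102, 2270, 2045 and 2350 CPM against 517, 272, 381 and 621 CPM; both encode tubulins of the spindle. Hmgb1, a chromatin protein, was 2.14-fold higher, and Ptma (prothymosin alpha) 1.82-fold. Cks1b of the mitosis and G2 list, which joins Cdk1 to its substrates, was 7.71-fold higher. Of 7 measured DNA repair genes 5 passed, all higher, with a median of 1.65 over the 7. Reads of tubulin, histone and Hmgb genes can be shared with near-identical copies, and how those were counted is not given.

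**Figure D3:**
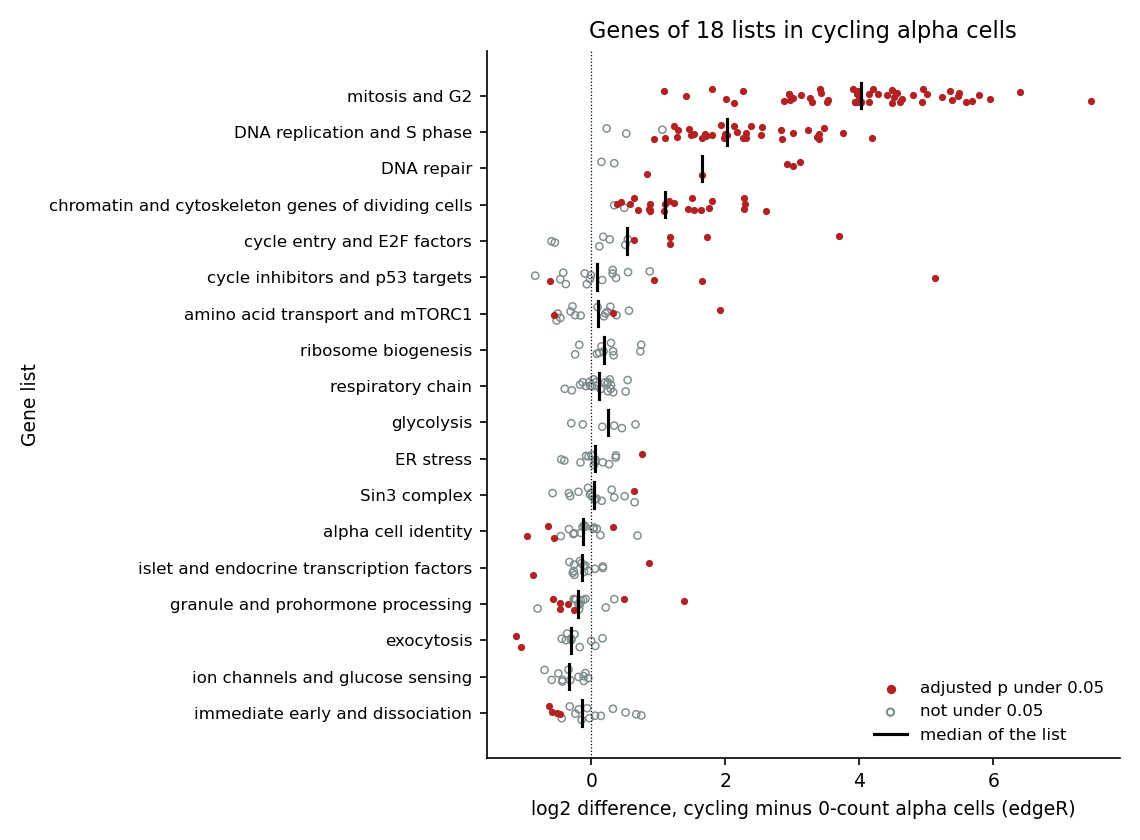
Log2 difference between cycling alpha cells and alpha cells with 0 counts (horizontal axis, edgeR) for the measured genes of 18 lists (vertical axis). Filled points passed an adjusted p of 0.05, black bars are list medians, and medians fall from 4.02 for mitosis to -0.33 for ion channels. The point farthest right is Cdc20, whose fitted value depends on the prior count.

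Most alpha cell identity genes did not pass the test between the states. Of 20 genes in the list Gcg was used by the rule, Fap and Loxl4 were near 0, and 17 were tested by edgeR, which is the test behind every adjusted p below. Of these 1 was higher, 3 were lower and 13 did not pass, with a median of -0.13, against 372 higher (5.92%) and 108 lower (1.72%) of all genes. Differences lay above 0 for 6 and below 0 for 11, against 2929 and 3353 of all 6282 genes. On counts simulated for this comparison 56 of 100 genes changed 2-fold were recovered, so a gene that did not pass may still differ. Irx2 was at 364, 213, 303 and 276 CPM in cycling cells and at 387, 230.4, 248.98 and 358 CPM in those with 0 counts, which overlap, and differed by -0.10 (SE 0.14). Irx1 differed by 0.03 (SE 0.13). Etv1 (0.14), Pou3f4 (-0.33), Ttr (0.04), Tmem27 (-0.13), Gria3 (-0.25), Mamld1 (0.08), Dpp4 (-0.45), Rgs4 (-0.15) and Peg3 (-0.27) lay between adjusted p of 0.114 and 0.944. Gc, the vitamin D binding protein, had the largest difference above 0 at 0.69 (SE 0.25, adjusted p 0.0869) and was higher in 4 of 4 libraries.

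Among the genes that were lower were a carrier and a receptor. Slc7a2, a carrier of arginine and lysine, was at 210.2, 220.4, 257 and 197 CPM against 371, 288, 328 and 292 CPM, a difference of -0.55 (SE 0.15, adjusted p 0.0126). Sstr2, the receptor through which somatostatin restrains glucagon release, was at 34.1, 44.1, 63.6 and 48.1 CPM against 96.7, 95.3, 90.1 and 97.3 CPM. It fell by 0.96 (SE 0.25, adjusted p 0.0120), and the 2 states did not overlap. Slc7a2 was no longer called in 6 of 14 alternatives and Sstr2 in 3 of 13, all with the same sign.

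Slc38a5, the glutamine carrier that proliferating alpha cells are known to raise when glucagon signalling is blocked, was at 2472, 1697, 1413 and 1149 CPM in cycling cells and at 1835, 1323, 978 and 1059 CPM in the others. It was higher in 4 of 4 libraries, by 0.33 (SE 0.10, adjusted p 0.0330). The difference was 0.01 after thinning to 2000 counts, and the call was lost in 11 of 14 alternatives. Across libraries its level ran from 1149 to 2472 CPM among cycling cells, a wider spread than the difference between states. Another amino acid carrier, Slc1a5, was low but higher in cycling cells, at 51.1, 29.4, 31.8 and 35.4 CPM against 7.89, 2.22, 12.3 and 9.93 CPM (log2 difference 1.92, SE 0.42, adjusted p 0.00198). Of 17 measured genes of amino acid transport and mTORC1 signalling, these 2 rose, Slc7a2 fell and 14 did not pass, at a median of 0.10. Over all genes tested 5.92% were higher and 1.72% lower.

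Of 16 measured endocrine transcription factors outside the alpha list 1 was higher and 1 lower, against 5.92% and 1.72% of all genes. Their median was -0.13, with 4 above 0 and 12 below. Insm1, a zinc finger factor of developing endocrine cells, was at 625, 419, 410.2 and 600.1 CPM against 254, 186, 248 and 402 CPM. It was higher in 4 of 4 libraries, by 0.86 (SE 0.14, adjusted p 2.11e-05), and by 0.62 after thinning. Smarca1, a chromatin remodeller, was at 165, 95.5, 246 and 286 CPM against 243, 332, 377 and 503 CPM. It fell by 0.87 (SE 0.16, adjusted p 0.00018) and was lower in 4 of 4 libraries. Isl1 (-0.26), Pax6 (-0.25) and Nkx2-2 (-0.26), which are shared by islet cells, did not pass.

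Genes of the secretory granule were mixed. Of 19 measured 2 rose and 5 fell, against 5.92% higher and 1.72% lower of all genes, with a median of -0.19. Vgf, a granin-like peptide precursor, was at 415, 235, 243 and 284 CPM in cycling cells against 138, 66.5, 114 and 108 CPM. It separated the states in every library, was 2.60-fold higher (log2 1.38, SE 0.17, adjusted p 1.53e-07), and kept its call in all 14 alternatives. Iapp (amylin), a beta cell hormone that is also on the list of beta cell markers, was at 2568, 3218, 3802 and 6755 CPM against 3425, 1626, 2310 and 3923 CPM. It was higher in 3 of 4 libraries, by 0.49 (SE 0.13, adjusted p 0.00967), and lost its call in 6 of 14 alternatives. Insulin was lower in the cycling cells of 3 of 4 libraries, with Ins1 at 597, 992, 534 and 220 CPM against 819, 1318, 689 and 204 CPM. Chgb (chromogranin B) fell by 0.47 (SE 0.12, adjusted p 0.00815), Syt13, an atypical synaptotagmin, by 0.57 (SE 0.13, adjusted p 0.00202) and Gnas, which couples receptors to cAMP and overlaps other transcripts of its locus, by 0.26 (SE 0.08, adjusted p 0.0309). Pcsk2, the convertase that cuts glucagon from its precursor, was at 3813, 4452, 2707 and 2808 CPM against 4492, 4276, 3080 and 3042 CPM, a difference of -0.16 that did not pass (adjusted p 0.341).

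Of 12 measured exocytosis genes 9 had differences below 0 and 2 passed, both lower, against 1.72% lower of all genes. Rab3a, a GTPase of docked granules, and Cadps, which primes them, fell by 1.13 (SE 0.28, adjusted p 0.00687) and by 1.05 (SE 0.31, adjusted p 0.0249). DESeq2 called neither, and Rab3a lost its call in 3 of 14 alternatives and Cadps in 5 of 13. Rab3a was at 34.1, 22.0, 54.9 and 40.5 CPM against 126, 77.5, 75.9 and 83.4 CPM. All 12 measured genes of ion channels and glucose sensing had differences below 0, with a median of -0.33, but none passed, the smallest adjusted p being 0.132 for the sodium channel Scn3a. Over all genes tested 3353 of 6282 lay below 0.

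**Figure D4:**
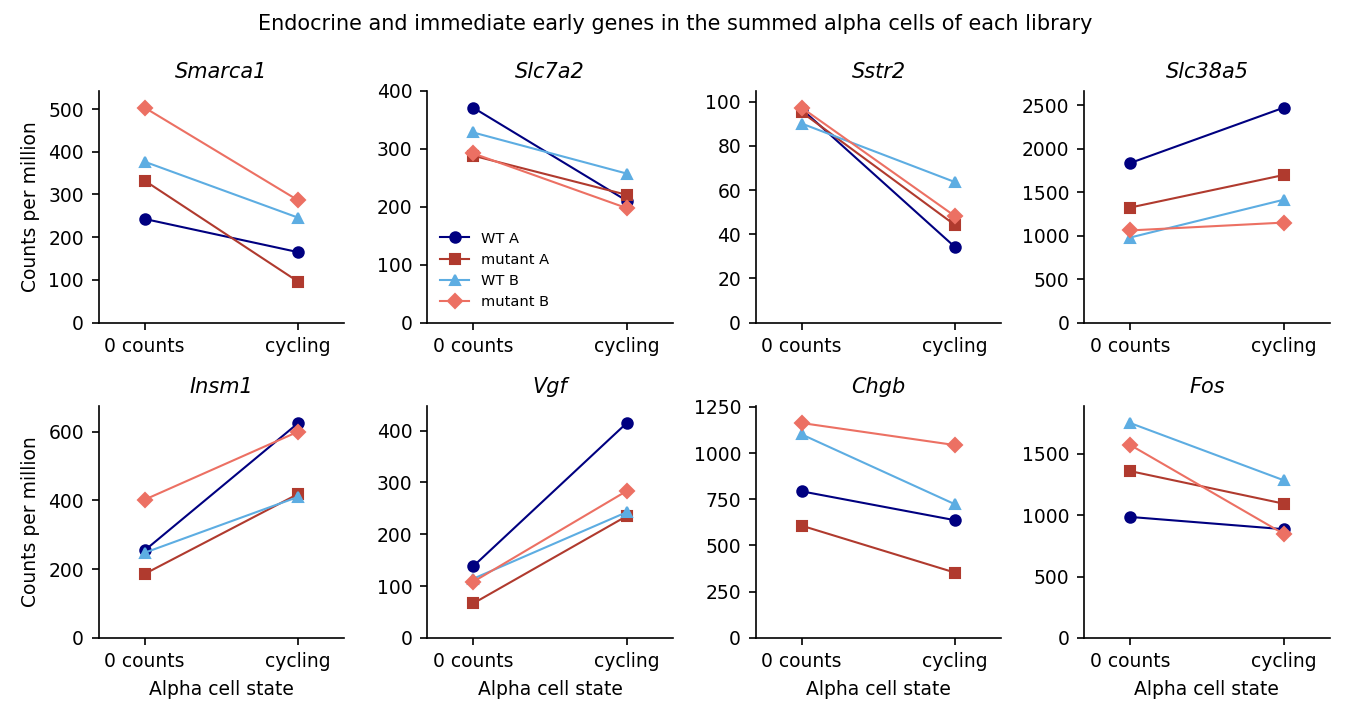
CPM (vertical axes, each from 0) of 8 genes in the summed alpha cells with 0 counts and in the cycling alpha cells of each library, joined by a line per library. Smarca1, Slc7a2, Sstr2, Chgb and Fos are lower and Slc38a5, Insm1 and Vgf higher in the cycling cells of all 4 libraries.

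Immediate early genes, which also respond to the dissociation of tissue, were lower in cycling alpha cells where they passed, 4 of 17 measured. Over all genes tested 1.72% were lower. Differences on this list lay above 0 for 6 genes and below 0 for 11. Fos, a subunit of AP-1, was at 886, 1095, 1286 and 848 CPM against 986, 1360, 1753 and 1574 CPM. It fell by 0.51 (SE 0.11, adjusted p 0.00167) and was lower in 4 of 4 libraries, least in WT A and most in mutant B. Junb fell by 0.63 (SE 0.13, adjusted p 0.00112), Egr1 by 0.46 (SE 0.11, adjusted p 0.00558) and Atf3 by 0.59 (SE 0.17, adjusted p 0.0300). Without mutant B Fos and Egr1 were not called, at -0.37 and -0.36, and Egr1 was not called without WT B either, at -0.44. The heat shock gene Hsp90aa1 of the same list was at 1517, 838, 1008 and 1076 CPM against 1166, 547, 751 and 1014 CPM, higher in all 4, with an adjusted p of 0.0583.

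Lists of growth and metabolism showed few calls, where 5.92% of all genes were called higher and 1.72% lower. None of 11 measured ribosome biogenesis genes, 6 glycolysis genes or 22 respiratory chain genes passed, with medians of 0.18, 0.25 and 0.11. At an unadjusted p under 0.05 by edgeR there were 3, 2 and 2, against 1183 of 6282 over all genes tested. Of 14 genes of endoplasmic reticulum stress Sdf2l1, a cofactor of the chaperone BiP, passed at 0.76 (adjusted p 0.0259) and lost its call in 7 of 14 alternatives. Of 16 genes of the Sin3 complex Rbbp4, a histone-binding subunit that also serves chromatin assembly in S phase, passed at 0.64 (SE 0.14, adjusted p 0.00141), and its difference was 0.35 after thinning, where it did not pass.

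The lower genes of smallest p were of other kinds. Hist1h2bc, a histone gene, was at 51.1, 44.1, 75.1 and 48.1 CPM against 126, 111, 165 and 129 CPM, with no overlap, and fell by 1.31 (SE 0.23, adjusted p 6.58e-05). The linker histone gene Hist1h1c fell by 0.86 and Rai2 by 1.04. Meg3, an imprinted long noncoding RNA, was at 1011, 970, 907 and 666 CPM against 1286, 1487, 1488 and 967 CPM and fell by 0.59 (SE 0.10, adjusted p 9.92e-05), lower in 4 of 4 libraries. Eef2, the factor that moves the ribosome along, fell by 0.63 (SE 0.12, adjusted p 0.000379). Ghrl (ghrelin), the hormone of epsilon cells, was at 22.7, 80.8, 14.4 and 81.0 CPM against 254, 268, 74.6 and 47.7 CPM. It was lower in 3 of 4 libraries and higher in mutant B, the log2 difference was -1.33 (SE 0.35, adjusted p 0.0111), and 6 of 14 alternatives lost the call.

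Genotype labels were compared within the cycling alpha cells, 2 libraries against 2. Sin3a, the scaffold of a histone deacetylase complex, was at 73.9 and 69.3 CPM (13 and 24 counts) in those of WT A and WT B and at 88.2 and 43.0 CPM (12 and 17 counts) in those of mutant A and mutant B. The library labelled mutant A was the highest and that labelled mutant B the lowest, so the groups overlapped. The log2 difference, mutant minus WT, was -0.15 (SE 0.64). Tags from 3′ ends check a label only where the mutation lowers or removes that end, which the sources used here do not say.

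None of 4906 genes tested (0%) passed an adjusted p of 0.05 by edgeR between the labels, and 10 higher and 8 lower had an unadjusted p under 0.05. DESeq2 called 0 as well, with 11 and 9 at an unadjusted p under 0.05. Leaving out 1 library called 3 to 12 genes, 12 without mutant B and 10 without mutant A. On counts simulated from these sums, 5 of 89 genes changed 4-fold and none of 111 changed 2-fold were recovered, so a difference of such size would mostly not have been detectable with these cells. Libraries of one label could differ widely: Ppy, a hormone the rule limits, was at 62.5 CPM in WT A and 965 CPM in WT B, and at 1198 CPM in mutant A and 261 CPM in mutant B.

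No cycle gene passed the test between the labels. Of 63 measured mitosis genes 42 lay above 0 and 21 below, with a median of 0.14, and of 40 replication genes 27 and 13, at 0.11, against 2556 of 4906 above 0 over all genes. Ghrl had the smallest p among higher genes, with 22.7 and 14.4 CPM in WT A and WT B (4 and 5 counts) and 80.8 and 81.0 CPM in mutant A and mutant B (11 and 32 counts), a log2 difference of 2.19 (SE 0.74, edgeR adjusted p 1.00). Fam98b (1.49), Arl4c (1.73), Arhgap12 (1.82) and Rgs5 (2.76) followed. Among lower genes Sparc (-2.68, SE 0.67), Socs3 (-2.33), Vim (-2.28), Serpinh1 (-1.68) and Ube2j2 (-1.53) had the smallest unadjusted p. Sparc was at 386 and 312 CPM in WT A and WT B and at 14.7 and 78.5 CPM in the mutant libraries, and the 2 cells named above held most of its counts. For Vim, 11 of 12 counts in WT A and 22 of 31 in WT B were in 1 cell each. Without the cells rich in other markers 0 of 4804 genes passed, and 6 of the 10 genes named here were tested.

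The difference between cycling alpha cells and those with 0 counts was then compared between the labels. Of 7900 genes 2 passed (0.0253%): Hbb-bs (-4.44, SE 0.56, edgeR adjusted p 9.83e-05) and Hbb-bt (-4.78, SE 0.89, adjusted p 0.0420), near-identical globin genes of red blood cells. Both rested on single barcodes in WT B and mutant B. Without the cells rich in other markers no gene passed and Hbb-bs stood at 1.03. None of the genes of the mitosis, replication or alpha identity lists passed. On counts simulated for this test, 5 of 101 genes changed 2-fold and 47 of 99 changed 4-fold were recovered. A 2-fold difference would thus mostly not have been detectable.

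Cycling alpha cells were last set beside cycling beta cells. The test asked whether the difference between cycling and 0-count cells was the same in both types, each within its libraries, and 8 of 11547 genes (0.0693%) passed. For 3 the alpha difference was the larger (Cks1b, Eral1 and Vim) and for 5 the smaller (Hbb-bt, Hbb-bs, Cit, Ctrb1 and Hba-a2). Without the cells rich in other markers Cks1b, Eral1 and Cit passed and no others. After thinning to 2000 counts none of these 3 passed, with Cks1b at 0.89 (edgeR adjusted p 0.501), Cit at -2.27 (adjusted p 0.0553) and Eral1 too low to be tested, while Hbb-bs and Hbb-bt did.

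Cks1b rose from 29.6, 39.9, 55.1 and 70.5 CPM to 244, 397, 482 and 443 CPM in alpha cells and from 96.2, 56.6, 145 and 186 CPM to 361, 288, 572 and 613 CPM in beta cells. The alpha rise was larger by 1.00 on the log2 scale (SE 0.18, edgeR adjusted p 0.00558), and its start was lower in 4 of 4 libraries. Cks1b lost this call in 2 of 8 alternatives, thinning among them. Cit (citron kinase), which works in the last step of cell division, was already present in alpha cells with 0 counts, at 23.7, 104, 99.2 and 29.8 CPM, and was at 34.1, 147, 133 and 78.5 CPM in cycling ones. In beta cells it went from 6.25, 6.94, 8.14 and 4.95 CPM to 41.9, 64.4, 44.1 and 33.1 CPM. The alpha difference was the smaller by 2.11 (SE 0.30, adjusted p 0.000123), and every alpha cell sum without cycle counts lay above every such beta cell sum. Eral1, a chaperone of mitochondrial ribosomal RNA, went from 17.8, 11.1, 26.6 and 14.9 CPM to 85.2, 44.1, 43.3 and 35.4 CPM in alpha cells, higher in 4 of 4, and from 36.2, 23.7, 28.3 and 21.0 CPM to 23.8, 15.2, 22.5 and 12.5 CPM in beta cells, lower in 4 of 4. The difference was 1.90 (SE 0.37, adjusted p 0.0131). In mutant A all 6 counts of Eral1 came from 1 cell, and the call was lost without WT A, without mutant A and without mutant B.

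**Figure D5:**
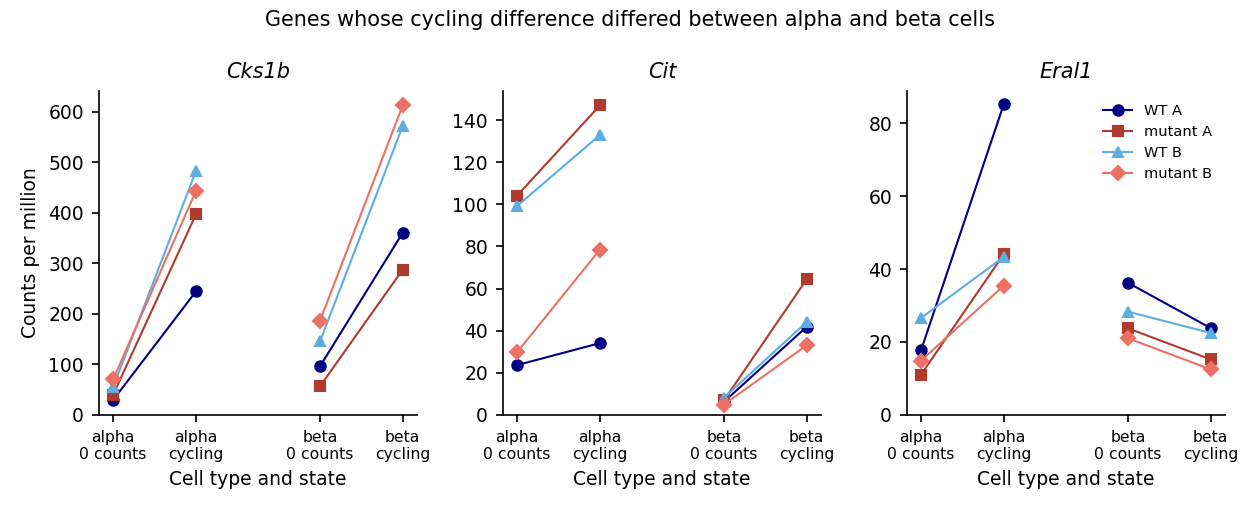
CPM (vertical axes, each from 0) of Cks1b, Cit and Eral1 in alpha and beta cells with 0 counts of the 8 cycle genes and in cycling ones, with a line per library. Cit is above 23 CPM in all alpha sums and under 9 CPM in all beta sums with 0 counts, and Eral1 runs up in alpha cells and down in beta cells.

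The mitosis list had a median difference between the types of 0.27 (1 of 71 passed, Cks1b), the replication list of 0.06 (0 of 51) and the alpha cell identity list of -0.21 (0 of 17). Among genes named above, Insm1 (0.59, SE 0.14, edgeR adjusted p 0.113) and Vgf (0.68, SE 0.19, adjusted p 0.259) did not pass. A p that misses the threshold does not show that both types change alike.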

How the data were processed

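Per the labels' protocols, islet cells were captured by inDrop, their RNA was amplified by the CEL-Seq route, and libraries were read on a NextSeq500. The authors deposited whole-number counts per gene and barcode, not normalized. Per the submitters' processing notes the builds were GRCh38 and GRCm38; the sources used here do not name aligner, annotation, strand or collapsing of molecular tags. Of 38459 features 2 not marked as mouse were left out.

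Counts were summed per library and state and tested with edgeR 4.0.16 (R 4.3.3): quasi-likelihood F test, TMM, filterByExpr, Benjamini-Hochberg adjusted p under 0.05. The library was a block where states were compared. The SE is the log2 difference over the root of F, not a spread between libraries. The 13 genes of the rule were left out of tests between states. The scripts were tested on simulated data. The p-values rest on 4 libraries, which the series calls biological replicates.

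Members and gene lists were chosen with earlier results of these data known. Named are the genes of the rule and of the alpha identity list, up to 5 of each other list by smallest p, and up to 10 per direction past the threshold or 5 of smallest unadjusted p. Genes given beside these for their role in a pathway were chosen after their values were seen. Some genes of the lists are counted but not reported here by name. Alternatives were DESeq2 1.42.0, no filter, each library left out, thinning to 2000 or 4000 counts (seed 1), other thresholds, Scrublet (scanpy 1.11.5) and the block.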

Additional observations from a re-analysis of the deposited data

Results flagged for a closer look

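The cycling difference differed between groups, by the test of that difference itself, for the following genes. Between genotype labels in alpha cells (mutant minus WT, log2) these were Hbb-bs at -4.44 and Hbb-bt at -4.78. In WT B 323 of 335 Hbb-bs counts of cycling alpha cells and 863 of 964 counts of those with 0 cycle counts were in 1 barcode each, and in mutant B 314 of 331.

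Between cell types (alpha minus beta, log2) these were Hbb-bt at -4.69, Hbb-bs at -4.14, Hba-a2 at -3.48, Ctrb1 at -2.88, Cit at -2.11, Cks1b at 1.00, Eral1 at 1.90 and Vim at 2.23. In the alpha cells with 0 cycle counts of mutant B, 277 of 309 Ctrb1 counts were in 1 barcode, and 22 of the 31 Vim counts of cycling alpha cells in WT B were in 1. Without the cells rich in markers of other types, an alternative chosen after seeing the data, Hbb-bs stood at -0.19, Ctrb1 at -0.39 and Vim at 0.74, none passing, while Cit stood at -2.16, Cks1b at 1.04 and Eral1 at 1.88 and passed.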

How the results depend on the processing

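Cycling against 0-count alpha cells called 480 genes; the count was 166 after thinning to 2000 counts, 157 in the fit with no replicate block (no library term), and 306 to 449 with 1 library left out, the 306 without WT B. Of the 372 higher genes, DESeq2 called 225 and of the 108 lower ones 34; no called gene turned its sign in any alternative. The labels within cycling alpha cells gave 0 calls, 5 with no filter on low counts and 3 to 12 with 1 library left out. The cycling difference by label gave 2, and 0 by DESeq2, 6 with no filter, 1 thinned, 0 without cells rich in other markers (chosen after seeing the data) and 5 to 11 with 1 library left out. Alpha against beta gave 8, and 4 by DESeq2, 32 with no filter, 2 thinned, 3 without the rich cells and 8 to 10 with 1 library left out. The cause of these moves was not tested.

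Title numbers are shared by the labels, and same-numbered libraries deviated with r = 0.205 across 4906 genes, but with 2 numbers they were not taken as pairs. With the number as a block the labels gave 0 calls, and the share difference of 4.51 points stayed 4.51 with p = 0.5 (exact permutation, 0.5 being the smallest). Shares differed by 2.92 on full counts and 4.92 thinned to 4000 counts between labels, and by -7.88 and -4.71 between alpha and beta.

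Between states signs turned for genes that did not pass. Irx1 stood at -0.0011 by DESeq2, -0.12 with no filter, -0.062 thinned, -0.039 at 5 or more counts and -0.024 to 0.069 with 1 library left out. Ttr stood at -0.12 with no filter, -0.21 thinned and -0.063 to 0.118 with 1 library left out. Mamld1 stood at -0.078 with no filter and -0.16 to 0.283 with 1 library left out, Etv1 at -0.017 with no filter and Rgs4 at 0.041 thinned. In the difference by label Hbb-bs, which had passed, turned to 1.03 and Sparc to 0.71 without the rich cells, and with 1 library left out Hbb-bs ran from -4.71 to 1.35 and Apoe from -1.66 to 4.72.

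Of 74 genes named between states, 112 of 1016 single values lost their call, 33 of them in the fit without a library term. Thinning tested 55 of the 74. Cycling alpha cells numbered 16 to 62 per library, which limits genes of low count.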

Other observations

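Imprinted genes did not move one way in cycling alpha cells; they were looked at after their values were seen. Mest, a paternally expressed gene of growing tissue, was at 114, 73.5, 98.2 and 147 CPM in cycling cells and at 29.6, 11.1, 38.9 and 71.5 CPM in those with 0 cycle counts, higher in 4 of 4 libraries (log2 difference 1.44, SE 0.26, edgeR adjusted p 0.000182), and at 0.63 after thinning to 2000 counts, where it did not pass. Igf2 stood at 335, 14.7, 72.2 and 96.2 CPM against 23.7, 57.6, 55.1 and 29.8 CPM, with 58 of the 59 counts of cycling cells in WT A, the library with 2176 CPM of mesenchymal markers, in 1 cell. Its log2 difference of 1.37 (SE 0.38, edgeR adjusted p 0.0175) was 0.57 without WT A and not called, lost its call in 5 of 12 alternatives, and was too low to be tested without the cells rich in other markers. Meg3 fell, and Dlk1, of the same imprinted region as Meg3, was at 364, 51.4, 57.8 and 114 CPM against 389, 84.2, 51.9 and 173 CPM, with an adjusted p of 0.456.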
